A study of Mus musculus with 6 samples.

Results

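Expression of 42 genes of the kinetochore and the spindle assembly checkpoint was examined in mammary tumors of *K14-cre*; *ApcCKO/+* mice. The 42 were chosen by function, as parts of the kinetochore, checkpoint proteins, the chromosomal passenger complex, mitotic kinases, and regulators of cohesion and anaphase, and all 42 were found among the 12518 genes tested on the arrays. Total RNA was profiled on 6 Affymetrix M430 2.0 arrays, with 1 array for each of 3 acinar-type mammary tumors and each of 3 control glands taken from *cre*-negative mice of matched age. The tumors had arisen on a mixed genetic background in mice with 1 conditional allele of *Apc*, in which Cre is driven by the promoter of keratin 14, a keratin of basal epithelial cells. The tumors carried the Cre-deleted *Apc* allele in the heterozygous state and a truncating mutation in the remaining allele. The control glands lacked *cre*, so the comparison combines the tumor state, Cre and the loss of *Apc*, which cannot be told apart. Samples of a group carry the label biological replicate, with no statement that each was from its own mouse, so the p-values measure the spread between these samples.

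The kinetochore is the protein assembly on each centromere that holds spindle microtubules. Its inner layer sits on chromatin marked by the histone variant CENP-A, its outer layer, built of the Knl1, Mis12 and Ndc80 complexes, binds microtubules, and kinetochores without microtubules recruit Bub and Mad proteins, which keep Cdc20 from activating the anaphase-promoting complex. Many of these genes are transcribed mainly from G2 to mitosis, and their RNA is low in tissue where few cells divide.

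The promoters of these genes are known for short elements of cell cycle control, the CHR (TTTGAA, with TTTAAA as a variant) and the CCAAT box. RefSeq promoter windows of GRCm38.p6, which run from 250 bases before to 50 after the start of transcription, were matched for 35 of the 42 genes, and *Spc24*, *Nsl1*, *Zwilch*, *Ska1*, *Aurkb*, *Incenp* and *Tpx2* had no entry. With both strands searched, TTTGAA was in 18 of the 35 windows (51.4%), against 18.1% of 27025 promoter windows of the same length, 1 per gene symbol. CCAAT was in 24 windows (68.6%), against 37.9% of all, and TTTAAA in 8 (22.9%), against 13.2%. TTTGAA and CCAAT together were in 14 (40.0%), against 7.12%. TTTGAA lay within 50 bases of the start in 15 of 35 (42.9%), against 4.92%, a distance chosen after the positions were seen. None of the 3 motifs contains another, although sites may share bases, and these shares describe letters in a window and not binding. Stretches from 100 bases before to 30 after the start are printed 5′ to 3′ on the gene's strand, with each site of the 3 motifs, on either strand, in capitals. Given first are the 6 genes with the largest log2 fold change, among those with a window, at a floor of 50, below which a gene has only a lower bound. Whether the motifs bear on the size of the change was not tested.
Cdc20 (chr4:118437314-118437443, minus strand): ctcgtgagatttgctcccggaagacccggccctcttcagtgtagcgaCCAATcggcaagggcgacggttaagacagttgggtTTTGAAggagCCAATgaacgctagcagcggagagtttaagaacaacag
Cenpp (chr13:49652702-49652831, minus strand): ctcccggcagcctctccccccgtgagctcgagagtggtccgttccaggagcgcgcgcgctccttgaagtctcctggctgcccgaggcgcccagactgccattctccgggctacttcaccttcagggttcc
Bub1 (chr2:127831830-127831959, minus strand): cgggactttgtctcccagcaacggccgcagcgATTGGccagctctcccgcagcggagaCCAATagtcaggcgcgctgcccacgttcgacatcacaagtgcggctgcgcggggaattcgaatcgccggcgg
Bub1b (chr2:118598111-118598240, plus strand): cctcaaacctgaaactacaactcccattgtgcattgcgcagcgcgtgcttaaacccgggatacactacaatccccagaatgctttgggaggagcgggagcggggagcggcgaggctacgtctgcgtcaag
Birc5 (chr11:117849137-117849266, plus strand): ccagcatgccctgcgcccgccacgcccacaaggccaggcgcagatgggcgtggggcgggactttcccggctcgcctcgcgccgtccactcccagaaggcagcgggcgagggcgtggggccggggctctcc
Sgol1 (chr17:53689286-53689415, minus strand): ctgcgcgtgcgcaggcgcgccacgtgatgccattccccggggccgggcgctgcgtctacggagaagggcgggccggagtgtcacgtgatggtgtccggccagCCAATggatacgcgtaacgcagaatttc

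Of these stretches only that of *Cdc20* held both TTTGAA and CCAAT, and those of *Cenpp*, *Bub1b* and *Birc5* held none of the 3 motifs. In the wider window, *Bub1b* had a TTTGAA site that begins at position 41 and a CCAAT site at -113, and *Birc5* had TTTAAA at -220, counted from the start of transcription as 1. The next sequences are of *Cenpf*, *Ttk* and *Cenpa*, the genes with the largest log2 fold change at that floor among the others that held both motifs in the stretch, chosen after the motifs were known. *Zwint* follows as the gene with the lowest log2 fold change among those with a window.
Cenpf (chr1:189688057-189688186, minus strand): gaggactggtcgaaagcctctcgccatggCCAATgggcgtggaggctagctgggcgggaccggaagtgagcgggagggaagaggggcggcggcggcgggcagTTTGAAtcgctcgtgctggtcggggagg
Ttk (chr9:83834589-83834718, plus strand): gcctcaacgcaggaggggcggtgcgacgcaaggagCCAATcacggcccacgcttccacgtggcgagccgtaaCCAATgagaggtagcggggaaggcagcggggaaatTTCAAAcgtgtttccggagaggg
Cenpa (chr5:30666786-30666915, plus strand): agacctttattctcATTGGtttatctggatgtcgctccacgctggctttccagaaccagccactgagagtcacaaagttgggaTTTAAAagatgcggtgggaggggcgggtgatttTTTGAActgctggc
Zwint (chr10:72654746-72654875, plus strand): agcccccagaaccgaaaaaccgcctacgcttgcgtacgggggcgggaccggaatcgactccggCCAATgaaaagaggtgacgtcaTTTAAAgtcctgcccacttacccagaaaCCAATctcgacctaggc

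Among the 27 genes with a window that were higher in tumors, 15 held TTTGAA and 20 held CCAAT. Among the 8 that did not pass the test, 3 held TTTGAA and 4 held CCAAT, and the difference between these shares was not tested.

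The values are MAS 5.0 signals, with every array scaled by the authors to a target of 500. Signals below 50 were set to 50 before log2 values were taken, and genes were tested with limma where a probe set reached 100 on at least 3 of the 6 arrays. The median signal of an array was 124 to 138 in tumors and 133 to 171 in control glands. *Apc* itself had signals of 1923, 1526 and 2006 in tumors and 1922, 2077 and 2149 in control glands, and since neither a truncated nor a Cre-deleted transcript need lose these probes, this does not check the labels. Of 10 pan-epithelial markers 8 were higher in tumors and none lower, with summed signals of 74185 to 97280 in tumors and 11361 to 25216 in control glands. All 8 adipocyte markers were lower, with sums of 1570 to 11194 in tumors and 125398 to 164444 in control glands, and 7 of 8 fibroblast and 7 of 8 endothelial markers were lower too. These cell types moved with every result below, and their part in it was not tested. In bulk RNA, fewer cells that express a gene and less RNA per cell cannot be told apart.

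Of the 42 genes, 33 were higher in tumors at an adjusted p under 0.05, against 16.3% of all genes tested, none was lower, against 16.8%, and 9 did not pass. At an unadjusted p under 0.05, and by the methods' t-test, 0 were lower as well. For 35 of them all tumors exceeded all control glands, against 27.1% of all genes, and for none were all tumors below all control glands, against 23.1%. The median log2 fold change was 2.43, against 0.071 over all genes tested. For 15 of the 42, against 1.27% of all genes, all 3 control glands lay below 100. These 15 were kept only because the tumors were high and so had to differ. Of the other 27, 18 were higher and their median log2 fold change was 2.00. Among the 33, 28 differed more than 4-fold and 13 more than 8-fold.

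**Figure D1:**
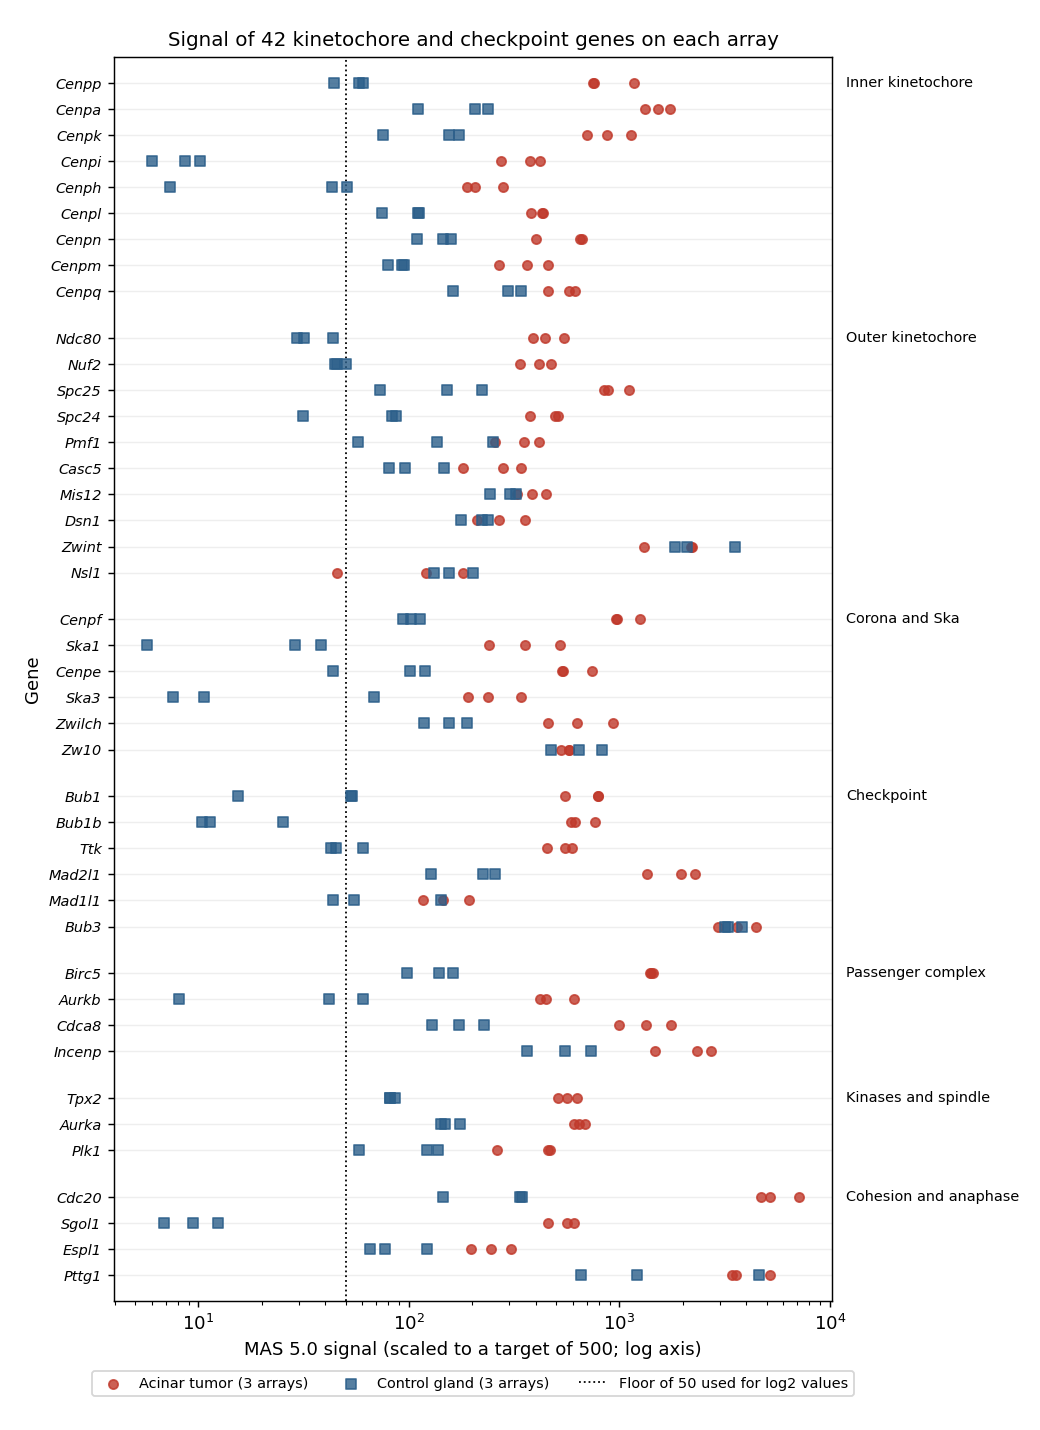
MAS 5.0 signal (log axis) of each of the 42 genes, grouped by role, in 3 acinar tumors (circles) and 3 control glands (squares), with the floor of 50 as a dotted line. For 35 genes all tumors lie to the right of all control glands, and for 7, such as *Bub3* and *Zwint*, the groups overlap. Signals are to be compared within a gene, since probe sets differ in brightness.

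**Figure D2:**
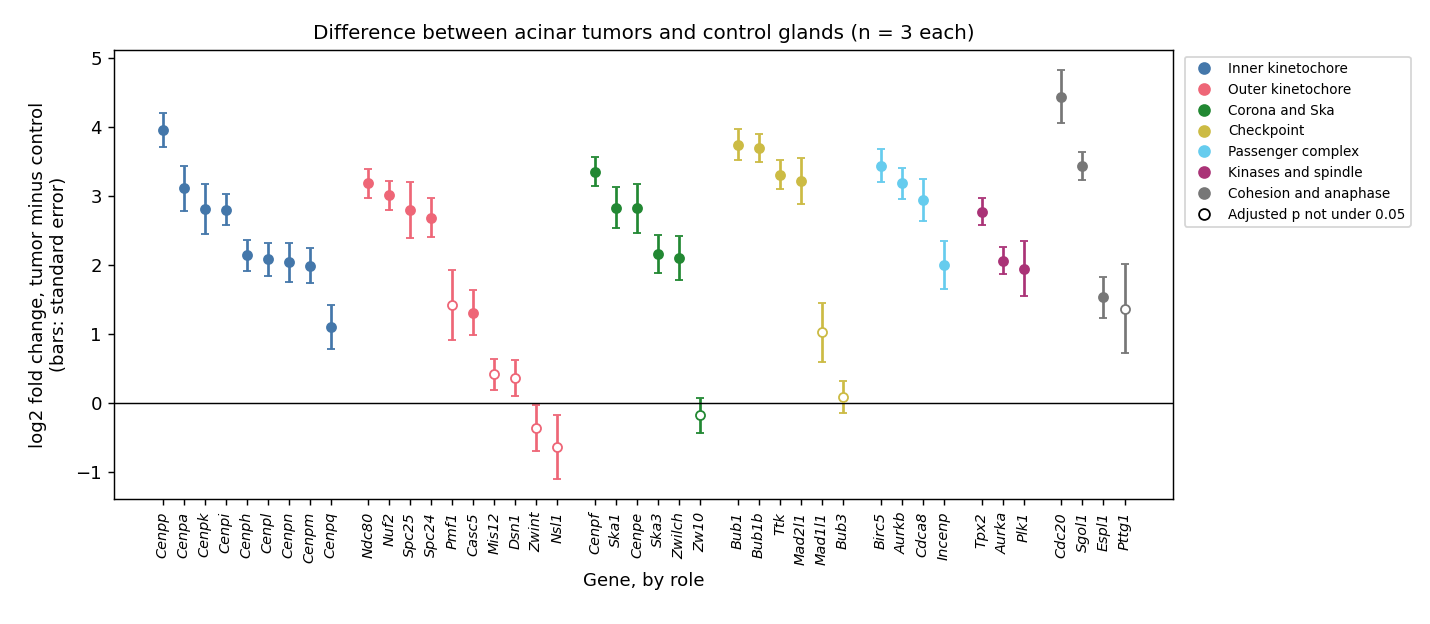
log2 fold change, tumor minus control, with its standard error from limma (n = 3 each), for each gene by role. Filled points passed at an adjusted p under 0.05. All 9 inner kinetochore genes are filled, while 5 of the 10 outer kinetochore genes are open.

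In the inner kinetochore all 9 genes were higher in tumors, against 16.3% of all genes tested, with a median log2 fold change of 2.14. Of the 9, *Cenph*, *Cenpi*, *Cenpm* and *Cenpp* passed the filter on low signals only through the tumors and so had to differ. *Cenpp*, whose protein belongs to the CENP-O group of the constitutive centromere network, had signals of 756, 1178 and 748 in tumors and 44.0, 58.0 and 60.8 in control glands. Its log2 fold change, tumor minus control, was 3.96 (standard error, SE, 0.25, and adjusted p = 0.000149 by limma), and 1 control gland lay below the floor. *Cenpa*, the centromeric histone itself, had signals of 1327, 1522 and 1739 in tumors and 239, 110 and 206 in control glands. The groups lay far apart, with the lowest tumor 5.57-fold above the highest control gland and a log2 fold change of 3.11 (SE 0.32, adjusted p = 0.000715). *Cenpk*, of the CENP-H, I and K group, had 877, 1138 and 703 in tumors and 172, 75.2 and 155 in control glands (log2 fold change 2.82, SE 0.36, adjusted p = 0.00168). Its partner *Cenpi* had 374, 419 and 273 in tumors and 8.6, 6.0 and 10.2 in control glands, all below 50, so that tumors were at least 6.99-fold higher (adjusted p = 0.000309). *Cenph*, *Cenpl*, *Cenpm* and *Cenpn*, other parts of the same network, had log2 fold changes of 1.99 to 2.14. The smallest change was that of *Cenpq*, a partner of CENP-P, with 578, 616 and 458 in tumors and 341, 162 and 296 in control glands (log2 fold change 1.11, SE 0.32, adjusted p = 0.0337). Its groups did not overlap, but its call was lost without each of tumor replicates 1, 2 and 3 and control replicates 2 and 3, with adjusted p-values up to 0.0992, and also without the filter on low signals (adjusted p = 0.0919).

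Of the 10 outer kinetochore genes 5 were higher in tumors, against 16.3% of all genes tested. The 4 subunits of the Ndc80 complex, which binds the microtubule, were all higher. None of the 4 subunits of the Mis12 complex, which ties the Ndc80 complex to the inner layer, passed the test. *Ndc80* had signals of 443, 545 and 391 in tumors, while all 3 control glands lay below 50 (43.4, 29.4 and 31.9), so that it was at least 9.10-fold higher (log2 fold change 3.19, SE 0.21, adjusted p = 0.000159). *Nuf2*, with which Ndc80 forms a dimer, had 337, 473 and 414 in tumors and 45.3, 44.8 and 50.4 in control glands (log2 fold change 3.01, SE 0.21, adjusted p = 0.000175). *Spc25* had 850, 1110 and 885 in tumors and 72.9, 152 and 223 in control glands (log2 fold change 2.80, SE 0.40, adjusted p = 0.00252). The control glands of *Spc25* spread the most widely among the called genes of this layer, and the lowest tumor was still 3.81-fold above the highest of them. *Spc24*, its partner, had a tumor minus control log2 difference of 2.68 (adjusted p = 0.000748). *Ndc80*, *Nuf2* and *Spc24* reached 100 only in tumors, so that the filter on low signals kept them through the group where they are high and they had to differ.

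For the subunits of the Mis12 complex the signals of tumors and control glands lay close together or spread widely. *Mis12* had signals of 385, 447 and 327 in tumors and 244, 302 and 321 in control glands. Its log2 fold change was 0.42 (SE 0.22, adjusted p = 0.191), although the lowest tumor lay just above the highest control gland. *Dsn1* had 356, 267 and 211 in tumors and 176, 238 and 224 in control glands, which overlap (log2 fold change 0.36, SE 0.26, adjusted p = 0.322). *Nsl1* had 121, 182 and 45.3 in tumors and 156, 202 and 131 in control glands (log2 fold change -0.64, SE 0.46, adjusted p = 0.325). With the probe sets used, tumor replicate 3 of *Nsl1* was the only tumor value below 50 among all 42 genes. The other probe set of *Nsl1*, which did not pass the filter, went the other way (log2 fold change 0.83). It had 120.7, 115.3 and 88.4 in tumors and 87.6, 39.9 and 42.8 in control glands. *Pmf1*, which encodes the Nnf1 subunit, had 258, 414 and 351 in tumors and 136, 57.6 and 251 in control glands (log2 fold change 1.42, SE 0.51, adjusted p = 0.0688). Its tumors all lay above its control glands, and the test was passed without control replicate 3 (log2 fold change 1.92, adjusted p = 0.026), with a floor of 100 and under both other scalings. Whether the Mis12 subunits differ from those of Ndc80 in their change was not tested.

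*Casc5*, now named *Knl1*, encodes the scaffold that docks Bub1 and Bub3 on the kinetochore. It was higher in tumors, with 341, 180 and 281 against 95.6, 80.6 and 147 in control glands (log2 fold change 1.31, SE 0.33, adjusted p = 0.0213). The call was lost without tumor replicate 1 or 3 or control replicate 1 or 2, with adjusted p-values up to 0.0641, without the filter on low signals (adjusted p = 0.0706) and by the methods' t-test. *Zwint*, which binds Knl1, had 2216, 2184 and 1314 in tumors and 2097, 3555 and 1838 in control glands. The groups overlap (log2 fold change -0.37, SE 0.34, adjusted p = 0.433), and its 4 other tested probe sets, with log2 fold changes of -0.55 to 0.75, did not pass either.

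The fibrous corona and the Ska complex join the kinetochore in mitosis. Of 6 of their genes 5 were higher in tumors, against 16.3% of all genes tested, with a median log2 fold change of 2.49 over the 6. *Ska1* and *Ska3* passed the filter on low signals only through the tumors and so had to differ. *Cenpf*, a large coiled-coil protein of the corona, had signals of 964, 1248 and 977 in tumors and 113, 94.2 and 103 in control glands (log2 fold change 3.35, SE 0.21, adjusted p = 0.000149). Both groups were tight, with an SD of 160 in tumors and 9.62 in control glands. *Ska1*, of the complex that holds on to microtubule ends, had 357, 524 and 241 in tumors and 5.7, 28.7 and 38.4 in control glands, all below 50, so that tumors were at least 7.12-fold higher (adjusted p = 0.000772). *Cenpe*, a kinesin that moves chromosomes to the spindle equator, had 531, 542 and 741 in tumors and 101, 119 and 43.5 in control glands (log2 fold change 2.82, SE 0.36, adjusted p = 0.00154). *Ska3* and *Zwilch* had log2 fold changes of 2.17 and 2.10. Zwilch works in 1 complex with Zw10, which brings dynein and the Mad1 protein to the kinetochore, but only *Zwilch* passed the test, and the difference between them was not tested. *Zwilch* had 936, 630 and 457 in tumors and 154, 118 and 188 in control glands (adjusted p = 0.00314), while *Zw10* had 575, 527 and 574 in tumors and 645, 474 and 826 in control glands. The log2 fold change of *Zw10* was -0.18 (SE 0.25, adjusted p = 0.615), with overlapping groups, and its sign turned with equal array medians, as the mean over its probe sets and without control replicate 3. Zw10 also acts in membrane traffic outside mitosis.

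Of the 6 checkpoint genes, 4 were higher in tumors, against 16.3% of all genes tested, and *Bub3* and *Mad1l1* did not pass. *Bub1*, a kinase that marks centromeric chromatin and recruits other checkpoint proteins, had signals of 791, 793 and 552 in tumors and 53.2, 15.5 and 53.7 in control glands. Its log2 fold change was 3.75 (SE 0.22, adjusted p = 0.000134). *Bub1b*, which encodes BubR1, an inhibitor of Cdc20, had 763, 618 and 588 in tumors and lay at 25.2, 11.3 and 10.4 in control glands, all below 50, so that tumors were at least 13.04-fold higher (log2 fold change 3.70, SE 0.20, adjusted p = 0.000126). That adjusted p was the lowest among the 42, but every control value of *Bub1b* was set to the floor, which left no spread among them. *Bub1b*, like *Bub1* and *Ttk*, passed the filter on low signals only through the tumors and so had to differ. *Ttk*, the Mps1 kinase that starts checkpoint signalling, had 452, 550 and 593 in tumors and 45.1, 42.6 and 60.4 in control glands (log2 fold change 3.31, SE 0.21, adjusted p = 0.000149). *Mad2l1*, which encodes Mad2, the protein that captures Cdc20, had a tumor minus control log2 difference of 3.23 (adjusted p = 0.00072).

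The partners of these proteins gave other values. *Bub3*, the WD40 protein that carries Bub1 and BubR1 to Knl1, had 4460, 3609 and 2926 in tumors and 3837, 3182 and 3273 in control glands. The groups overlap and the log2 fold change was 0.079 (SE 0.23, adjusted p = 0.818), with 0.18 to 0.36 for 3 other probe sets, none of which passed. *Mad1l1*, which encodes Mad1, the kinetochore anchor of Mad2, had 117, 145 and 194 in tumors and 142, 54.8 and 43.6 in control glands. Its log2 fold change was 1.03 (SE 0.43, adjusted p = 0.103). Control replicate 1 alone lay among the tumors, and without it the log2 fold change was 1.51 (adjusted p = 0.0145). It also passed under both other scalings, quantile normalization and equal array medians.

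All 4 genes of the chromosomal passenger complex, which frees wrongly attached microtubules, were higher in tumors, against 16.3% of all genes tested. Their median log2 fold change was 3.07, and *Aurkb* passed the filter on low signals only through the tumors and so had to differ. *Birc5*, which encodes survivin, had signals of 1395, 1437 and 1417 in tumors and 162, 98.4 and 139 in control glands. The 3 tumors differed by 1.03-fold at most, and the log2 fold change was 3.44 (SE 0.24, adjusted p = 0.000175). *Aurkb*, the kinase of the complex, had 610, 420 and 447 in tumors and 60.8, 8.1 and 41.9 in control glands (log2 fold change 3.18, SE 0.23, adjusted p = 0.000193). *Cdca8*, which encodes borealin, had 1335, 997 and 1750 in tumors and 228, 129 and 172 in control glands (log2 fold change 2.95, SE 0.31, adjusted p = 0.000721). The scaffold *Incenp* changed least in this complex, with 2739, 1478 and 2350 in tumors and 735, 363 and 552 in control glands (log2 fold change 2.00, SE 0.35, adjusted p = 0.00513).

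The 3 genes of mitotic kinases and spindle assembly were higher as well, against 16.3% of all genes tested. Of these, *Tpx2* passed the filter on low signals only through the tumors and so had to differ. *Tpx2*, an activator of Aurora A on spindle microtubules, had 632, 512 and 562 in tumors and 86.3, 81.5 and 81.1 in control glands (log2 fold change 2.77, SE 0.20, adjusted p = 0.000175). Aurora A itself, encoded by *Aurka*, had 686, 641 and 608 in tumors and 174, 149 and 142 in control glands (log2 fold change 2.06, SE 0.20, adjusted p = 0.000541). *Plk1*, the Polo-like kinase, had 458, 261 and 469 in tumors and 122, 58.1 and 138 in control glands (log2 fold change 1.95, SE 0.40, adjusted p = 0.00943). Tumor replicate 2 was the lowest tumor for *Plk1* and still 1.90-fold above the highest control gland.

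Among the 4 genes of cohesion and anaphase, 3 were higher in tumors, against 16.3% of all genes tested. Of these, *Sgol1* passed the filter on low signals only through the tumors and so had to differ. *Cdc20*, the target of the checkpoint, which switches on the anaphase-promoting complex, had the largest log2 fold change of the 42 at the floor of 50. *Bub1b*, *Sgol1*, *Cenpi*, *Ndc80* and *Ska1*, which lay below that floor in every control gland, have only lower bounds and cannot be ranked against *Cdc20*. With every control value of these genes set to the floor, no spread among control glands enters their p-values. Genes with only some control glands below 50 depend on the floor as well, as *Bub1* does, with 3.75 and, at a floor of 16, 4.30. The signals of *Cdc20* were 5220, 4686 and 7164 in tumors and 338, 145 and 347 in control glands (log2 fold change 4.45, SE 0.38, adjusted p = 0.000356), and its 2 other tested probe sets were also higher, by 3.32 and 2.71. *Sgol1*, shugoshin, which guards centromeric cohesin, had 566, 611 and 460 in tumors and 12.4, 9.4 and 6.9 in control glands, all below the floor, so that tumors were at least 10.8-fold higher (adjusted p = 0.000134). *Espl1*, which encodes separase, the protease that cuts cohesin, had 306, 197 and 246 in tumors and 122, 65.2 and 77.0 in control glands (log2 fold change 1.53, SE 0.30, adjusted p = 0.00841).

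*Pttg1*, which encodes securin, the inhibitor of separase, did not pass. Its signals were 3567, 5187 and 3430 in tumors and 4590, 660 and 1218 in control glands (log2 fold change 1.37, SE 0.65, adjusted p = 0.145). Another probe set of *Pttg1* had 1118.5, 1181.8 and 1406.1 in tumors and 972.5, 148.5 and 290.4 in control glands, without overlap (log2 fold change 1.82). It did not pass either (adjusted p = 0.0567), nor did the remaining tested probe set (log2 fold change 0.10, adjusted p = 0.885). With the probe set used, control replicate 1 lay between the tumors, and without it the log2 fold change was 2.15 (adjusted p = 0.00865). The same control gland had the highest signals of the tested lymphocyte markers, which summed to 6120 in it, against 401 and 1894 in the other control glands and 129 to 228 in tumors, and whether this bears on *Pttg1* was not tested. Its *Ms4a1*, a B cell marker, had a signal of 3957, against 187 and 1075 in the other control glands and 62.0, 49.9 and 51.2 in tumors.

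For 18 of the 33 higher genes the highest tumor was within 1.5-fold of the lowest, and for *Zwilch* and *Ska1* it was at least 2-fold higher. Tumor replicate 3 was the lowest tumor for 17 of the 33, and tumor replicate 2 the highest for 14. The summed signal of the 42 genes was 41116, 40955 and 38248 in tumors and 16356, 11490 and 12229 in control glands. Bright probe sets weigh most in these sums, among them those of *Cdc20*, which was higher, and of *Bub3*, *Pttg1* and *Zwint*, which did not pass. In control replicate 1 *Bub3*, *Pttg1* and *Zwint* had 3837, 4590 and 2097. Control replicate 2 was the lowest control gland for 23 of the 33. That gland also had the lowest summed pan-epithelial signal, 11361 against 20822 and 25216 in the other control glands, and the highest summed skeletal muscle signal, 142744 against 5814 and 53092. Whether these bear on its low values was not tested, and without it 31 of the 42 genes were higher.

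With the genes and probe sets kept as they were, leaving out any 1 of the 6 arrays left 31 to 34 genes higher and none lower, and 31 of the 33 kept their call each time, the exceptions being *Casc5* and *Cenpq*. When the filter was repeated on the remaining arrays, 29 of the 42 genes were tested without any 1 tumor, and 17, 18 and 17 were higher without tumor replicate 1, 2 and 3, since a gene that is low in all control glands then cannot reach 100 on 3 arrays. By the methods' t-test on linear signals, with a statistic of at least 4.5 and at least 2-fold, 26 were higher. The calls of *Casc5*, *Cenpq*, *Espl1*, *Incenp*, *Plk1*, *Ska1* and *Zwilch* were lost by that test. After Benjamini-Hochberg adjustment of its p-values over all genes at 0.05, only *Aurka*, *Birc5* and *Cenpl* were higher.

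Many of these genes are read by several probe sets. Besides those used, 32 probe sets of 19 of the genes passed the filter. Of 21 that belong to genes called higher, 17 were higher too and none was lower. The other 4 did not pass: 1 of *Cenpk* (log2 fold change 0.73), 1 of *Spc25* (0.58) and 2 of *Tpx2* (-0.035 and -0.20), while another of *Tpx2* was higher by 2.67. Of 11 that belong to genes which did not pass, none passed.

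**Figure D3:**
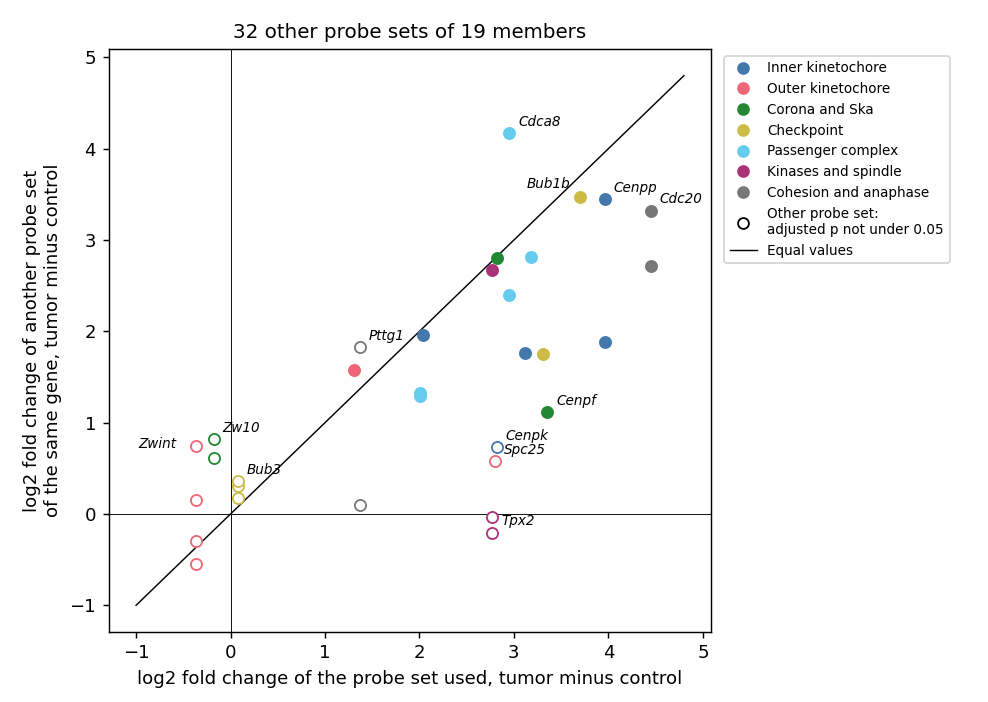
log2 fold change, tumor minus control, of 32 other probe sets against that of the probe set used for the same gene, all measured on the same 6 arrays. Filled points passed at an adjusted p under 0.05 over all probe sets, and the line marks equal values. The open points of *Tpx2*, *Cenpk* and *Spc25* lie well below the line.

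Among other genes that work at the kinetochore, a smaller share was called than among the 42, and the difference was not tested. Of 25 tested, among 27 listed, 12 were higher in tumors, against 16.3% of all genes tested. None was lower, against 16.8%, and 13 did not pass, with a median log2 fold change of 0.74 over the 25. Of the 12, *Gsg2* and *Oip5* passed the filter on low signals only through the tumors and so had to differ. The largest log2 fold changes at the floor were those of *Gsg2*, the haspin kinase, with 457, 393 and 336 in tumors and 42.9, 28.4 and 5.6 in control glands, all below 50, so that tumors were at least 7.84-fold higher, and *Nek2*, a centrosomal kinase, with 796, 904 and 977 in tumors and 78.5, 166 and 119 in control glands (log2 fold change 2.94, adjusted p = 0.000686). At the other end stood *Clasp2* and *Clasp1*, which bind microtubule plus ends, with log2 differences of -0.64 (adjusted p = 0.105) and -0.21 (adjusted p = 0.477). Among inner kinetochore genes outside the 42, *Cenpw* had a tumor minus control log2 difference of 1.84 (adjusted p = 0.00343) and *Cenpo*, the partner of CENP-P, -0.13 (adjusted p = 0.702). These last 2 were picked after their values were seen.

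Of 16 genes of the anaphase-promoting complex and its cofactors, on which the checkpoint acts, 7 were higher, against 16.3% of all genes tested. Of the others 1 was lower, against 16.8%, and 8 did not pass, and the median log2 fold change of the 16 was 0.43. With genes and probe sets kept, 3 were higher without tumor replicate 1, control replicate 1 or control replicate 3 and 4 without tumor replicate 2 or 3, and 3 were by the methods' t-test. *Ube2c*, its ubiquitin-conjugating enzyme, had 1724, 1375 and 1512 in tumors and 242, 119 and 175 in control glands (log2 fold change 3.16, adjusted p = 0.000466), and *Fbxo5*, the inhibitor Emi1, had a tumor minus control log2 difference of 1.63 (adjusted p = 0.028). The subunit *Cdc27* was lower, with 905, 985 and 712 in tumors and 1217, 1868 and 1458 in control glands (log2 fold change -0.80, adjusted p = 0.0441). That call was lost with equal array medians, without the filter on low signals, with the replicate block, with the 2-fold limit, by the methods' t-test and without any 1 array once the filter was repeated. *Anapc5*, another subunit, had -0.14 (adjusted p = 0.664).

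Of 19 genes of cohesin and condensin, which hold sister chromatids together and compact them, 9 were higher, against 16.3% of all genes tested. None was lower, against 16.8%, and the median log2 fold change was 0.64. Without any 1 tumor, with the filter repeated, 5 were higher, as by the methods' t-test. *Cdca5*, which encodes sororin, had 754, 706 and 640 in tumors and 94.7, 52.3 and 66.2 in control glands (log2 fold change 3.34, adjusted p = 0.000272), and the condensin subunit *Ncapg* had a tumor minus control log2 difference of 2.97 (adjusted p = 0.000303). Of the 9 higher genes, *Cdca5*, *Ncapg* and *Esco2* passed the filter on low signals only through the tumors and so had to differ. The cohesin regulators *Pds5b* and *Nipbl* had -0.11 (adjusted p = 0.816) and -0.069 (adjusted p = 0.845). Of 7 general proliferation genes 6 were higher, against 16.3% of all genes tested, with a median of 3.66. The proliferation antigen *Mki67* had 4615, 5902 and 8659 in tumors and 671, 184 and 357 in control glands (log2 fold change 4.13, adjusted p = 0.00112), and *Cdk1*, the mitotic kinase, had a tumor minus control log2 difference of 3.83 (adjusted p = 0.00277). The replication licensing gene *Mcm2* had 0.55 (adjusted p = 0.128) and *Pcna*, the sliding clamp, 1.24 (adjusted p = 0.012). Differences between these lists and the 42 genes were not tested.

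**Figure D4:**
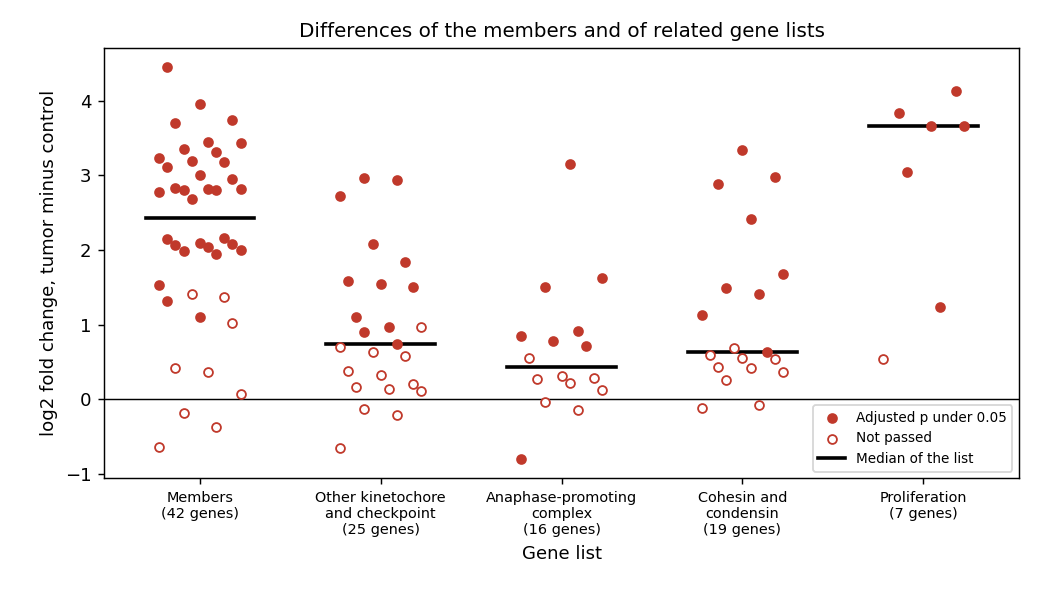
Tumor minus control difference, as log2 fold change, of the 42 genes and of 4 related gene lists, with 1 point per gene, filled where the adjusted p was under 0.05, and a bar at each list's median. The medians are 2.43 for the 42 genes, 0.74 for other kinetochore genes, 0.43 for the anaphase-promoting complex, 0.64 for cohesin and condensin and 3.66 for proliferation genes.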

How the data were processed

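The deposited intensity values are linear MAS 5.0 signals, which the authors had scaled to a target of 500 on every array, and their detection calls were left aside. The arrays held 45101 probe sets, of which 64 were controls and were dropped, and the platform annotation gave 34945 probe sets 1 gene symbol, which alone stand for genes. *Casc5* and *Sgol1* were matched by synonym.

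A floor of 50 was applied before log2 transformation. A gene was read by its probe set of highest mean log2 signal among those with at least 100 on 3 or more arrays. Groups (3 tumors, 3 control glands) were compared in R 4.3.3 with limma 3.58.1 (lmFit, eBayes), 2-sided, with Benjamini-Hochberg adjustment over 12518 genes at 0.05 and no fold limit. Where all samples of a group lay below 50, folds of the group means are against 50 and written as at least that value. The number of arrays limits the precision. The steps were tested on simulated data.

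The 42 genes, the gene lists and the tests were chosen with earlier results of these data known. Named with all signals in each role group are the 3 largest changes, the smallest and every gene that did not pass, and, with signals for some, the 2 largest and 2 smallest in each of the 4 related lists, and few or none in the marker lists. *Cenpi*, *Spc24*, *Casc5*, *Zwilch*, *Ska3* and *Mad2l1* were named after their values were seen. The alternatives comprised equal array medians, quantile normalization, a floor of 16 or of 100, log2 of the signal plus 50, no filter or a filter at 200, the mean over probe sets, no probe sets that may cross-hybridize, a variance trend, a 2-fold limit, the replicate number as a block, the methods' t-test and each array left out.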

Additional observations from a re-analysis of the deposited data

How the results depend on the processing

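None of the 42 genes was called lower under any alternative, and the number called higher lay between 29 and 35 with the filter at 200, under the other scalings and floors, without the filter and with the mean over probe sets. The median log2 fold change of the 42 genes moved with the low signals, to 2.79 with a floor of 16, 2.03 with a floor of 100, 2.08 as log2 of the signal plus 50, 2.80 with the filter at 200 (36 genes tested) and 2.09 as the mean over probe sets. After adjustment the methods' t-test called 3 of the 42 genes and 0 of the other kinetochore genes, of which it called 8 unadjusted. Over all genes it called 685 higher and 920 lower, and 67 higher and 73 lower after adjustment, and the 2-fold limit left 1329 higher. With each array left out in turn the number of the 42 called higher lay between 17 and 34. The median log2 fold change of those tested lay between 1.82 and 2.51. The lowest of both came with the filter repeated, when only 29 of the 42 genes were tested. The calls over all genes lay between 1241 and 1648 higher and between 1151 and 2012 lower. The version that kept the genes and probe sets of all 6 arrays was chosen after seeing the data, and it gave 31 to 34 and medians of 2.30 to 2.51. The log2 fold change of *Tpx2* was between -0.18 and 2.84 over these, since with the filter repeated another of its probe sets stood for it, and between 2.69 and 2.84 with its probe set kept. That of *Bub3* lay between -0.073 and 0.23, and that of *Zw10* between -0.39 and 0.013. *Zw10* was also 0.057 with equal array medians and 0.42 as the mean over probe sets. Equal array medians moved the median of all genes by over 0.1, to 0.31, and that of the 42 genes to 2.64, with 3027 genes higher and 1666 lower (64.5% of calls higher, against 49.4%). The replicate numbers did not pair the samples, with correlations of deviations of -0.22, 0.021 and 0.038, and with the replicate block 32 of the 42 genes were higher, *Cenpq* no longer passing (adjusted p = 0.0616), with 1630 genes higher and 1860 lower in all. Leaving out cross-hybridizing probe sets (40 genes tested) gave 32. Signals near the floor limit the size of the change for the 15 genes with a control gland below 50.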
